A study of Homo sapiens with 2 samples.

Results

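The TRH and SERPINI1 cardiomyocytes were 510 cells of 1 culture in which TRH, SERPINI1, PRKG1-AS1, HHATL and COLQ were highest, out of 5095 cardiomyocytes and 14829 barcodes in all. The culture was HES2, a human embryonic stem cell line, differentiated towards sinoatrial node-like pacemaker cells, which the labels abbreviate SANLPC. Both deposited libraries came from the same cells and were read as CITE-seq, 1 from polyadenylated RNA and 1 from the barcodes of an antibody against the surface protein CD34 (TotalSeq A0054). Cells were sorted as live singlets, with no selection on CD34 or on a cardiac marker, and the series asks how heterogeneous such pacemaker cultures are. No treatment, genotype or second culture was compared, and the culture is an in vitro model without the node's own nerves, vessels and blood flow.

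A cardiomyocyte was taken as a barcode with at least 1000 genes, at most 25% mitochondrial counts and at most 35000 RNA counts, which also had at least 2000 CPM (counts scaled to a common total) of TNNT2, the cardiac troponin T gene, and at most 4 counts of the epithelial genes VTCN1, GATA3, CLDN4 and WNT6 together. Counts are of unique molecular identifiers (UMIs), so each stands for 1 captured transcript. The score of a cell was its mean log level of the 5 genes after scaling to 10000 UMIs, and the members were the 10% of cardiomyocytes with the highest score. Each value is set against the 4585 other cardiomyocytes, and 5695 cells with less than 2000 CPM of TNNT2 show the level outside cardiomyocytes. Because there was 1 culture, no test between conditions was possible, and the 95% intervals given are exact and cover counting error only. The cells were picked on their RNA, so every RNA difference below is a description. The antibody tag alone was not used in picking them.

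Troponin I is the subunit of the thin filament that holds contraction back until calcium binds troponin C. Developing human heart muscle uses the slow skeletal form, TNNI1, and replaces it gradually with the cardiac form, TNNI3, so the level of TNNI3 is widely used as a sign of cardiomyocyte maturation. Pacemaker cells of the sinoatrial node are a specialized cardiomyocyte that fires spontaneously. They depend on the transcription factors SHOX2, TBX3, TBX18 and ISL1, of which SHOX2 and TBX3 hold back the working muscle programme led by NKX2-5. TRH encodes the precursor of thyrotropin-releasing hormone, a tripeptide best known from the hypothalamus, and SERPINI1 encodes neuroserpin, a secreted inhibitor of tissue plasminogen activator best known from neurons.

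The promoters of 3 genes are printed. TRH and SERPINI1 lead the choice of cells, and TNNI3, which had no part in the choice, is followed through the results below. Each window is the 250 bases before the RefSeq transcription start (GRCh38.p14), written 5′ to 3′ on the gene's strand, with matches to the searched motifs in capitals. TRH lies on chromosome 3, from 129974720 to 129977935, and its window is chr3:129974470-129974719 on the plus strand. SERPINI1 lies on the same chromosome, from 167735721 to 167825569, with its window at chr3:167735471-167735720 on the plus strand. TNNI3 lies on chromosome 19, from 55151767 to 55157732, with its window at chr19:55157733-55157982 on the minus strand.
TRH promoter: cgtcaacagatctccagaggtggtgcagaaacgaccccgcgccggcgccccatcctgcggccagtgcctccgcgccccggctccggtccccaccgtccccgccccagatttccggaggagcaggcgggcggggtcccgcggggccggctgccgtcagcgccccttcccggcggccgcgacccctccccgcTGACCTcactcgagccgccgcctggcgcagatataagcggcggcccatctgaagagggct
SERPINI1 promoter: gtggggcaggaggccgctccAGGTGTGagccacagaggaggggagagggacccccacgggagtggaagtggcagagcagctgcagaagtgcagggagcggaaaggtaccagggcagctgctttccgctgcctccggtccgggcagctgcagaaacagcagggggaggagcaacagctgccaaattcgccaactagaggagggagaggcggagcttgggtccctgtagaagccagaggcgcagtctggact
TNNI3 promoter: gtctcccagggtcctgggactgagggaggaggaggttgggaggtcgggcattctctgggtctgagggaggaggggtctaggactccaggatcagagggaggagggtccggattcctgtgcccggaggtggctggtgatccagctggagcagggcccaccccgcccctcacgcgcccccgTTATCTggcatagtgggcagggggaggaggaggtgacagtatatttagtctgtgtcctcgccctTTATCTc
Motifs were searched on both strands, and matches to different motifs did not overlap in these 3 windows. The capitals in the TRH window are AGGTCA on the opposite strand, the core that nuclear hormone receptors share, 60 to 55 bases before the start, a motif present in 12.1% of all 35116 windows. In the SERPINI1 window they are the T-box motif AGGTGTG, 230 to 224 bases before the start, present in 3.84% of windows. The TNNI3 window holds the GATA motif AGATAA on the opposite strand at 71 to 66 and at 7 to 2 bases before the start, a motif present in 9.17% of windows. Matches are to letters only and say nothing of binding in these cells.

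The 5 genes that chose the cells were expressed at very different levels, and the values that follow describe the choice. TRH stood at 1143 CPM in members and 185 CPM in other cardiomyocytes, a ratio of 6.19 (95% interval 6.03 to 6.35). Per cell, members held 1 to 90 TRH UMIs with a median of 17.5, and other cardiomyocytes 0 to 67 with a median of 1. A TRH UMI was thus found in 100% of members, 53.1% of other cardiomyocytes and 8.99% of cells below the TNNT2 limit. After each cell was thinned to 5000 UMIs, which left out 2 members, 282 other cardiomyocytes and 354 cells below the limit, those shares were 97.0%, 37.2% and 3.18%. TRH transcripts were therefore not confined to the members, and the ranges overlapped.

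SERPINI1 stood at 319 CPM in members and 48.7 CPM in other cardiomyocytes (ratio 6.54, 6.22 to 6.87). Thinned to equal depth, 74.0% of members, 17.1% of other cardiomyocytes and 6.25% of cells below the TNNT2 limit held a SERPINI1 UMI. PRKG1-AS1, a noncoding RNA at the end of the cyclic GMP-dependent kinase gene PRKG1, stood at 107 CPM in members and 31.0 CPM in other cardiomyocytes (ratio 3.44, 3.18 to 3.71). Its span on chromosome 10 (52296848 to 52314128, minus strand) shares 1503 bases with PRKG1 (50990888 to 52298350, plus strand), and the sources used here do not say whether counting used the strand. HHATL, a relative of the enzyme that attaches a fatty acid to hedgehog proteins, stood at 107 CPM in members and 36.0 CPM in other cardiomyocytes (ratio 2.97, 2.76 to 3.20). COLQ, the collagen tail that anchors acetylcholinesterase at the neuromuscular junction, stood at 65.8 CPM in members and 25.4 CPM in other cardiomyocytes (ratio 2.59, 2.36 to 2.84). HHATL (chromosome 3, 42692663 to 42702798) and COLQ (chromosome 3, 15450133 to 15521706) share their chromosome with TRH and SERPINI1 but lie far from them.

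The members were a mixed group in how many of the 5 transcripts they carried. UMIs of all 5 genes were found in 189 members (37.1%), of 4 genes in 205, of 3 in 104 and of 2 in 12. Among other cardiomyocytes 83 cells (1.81%) held all 5 and 859 held none. In total depth the groups were close, with a median of 16959 RNA UMIs per member, 15686 per other cardiomyocyte and 17085 per cell below the TNNT2 limit.

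Choosing cells on a transcript inflates that transcript, so the UMIs of each cell were also split at random, the cells chosen on one portion and the genes measured in the other. That choice shared 397 of the 510 members. TRH then stood at 1072 CPM in the chosen cells and 193 CPM in the others (ratio 5.56), SERPINI1 at 283 and 53.6 CPM (5.27), and PRKG1-AS1 at 87.0 and 33.7 CPM (2.58). HHATL stood at 91.0 CPM in the chosen cells and 38.3 CPM in the others (2.37), and COLQ at 58.0 and 27.6 CPM (2.10). All 5 genes thus remained higher when measured in UMIs that had not chosen the cells.

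The limit between members and the rest was a point on a continuous range. The lowest member scored 0.8778 and the highest other cardiomyocyte 0.8776. The 50 members just inside the limit had 908 CPM of TRH and 201 CPM of SERPINI1, and the 50 cells just outside had 697 and 204 CPM. TNNI3 stood at 919 CPM just inside and 838 CPM just outside. TBX3, which over the whole score was lowest in the members, stood at 119 CPM just inside and 72.4 CPM just outside.

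Across 10 equal bins of cardiomyocytes ordered by score, TNNI3 stood at 278, 264, 352, 393, 417, 434, 503, 612, 734 and, in the members, 1242 CPM. CKM, the muscle creatine kinase, climbed from bin to bin, from 532 CPM in the lowest to 1520 CPM in the ninth and 2058 CPM in the members. PLCXD3 stayed at or below 15.1 CPM in the lowest 8 bins and stood at 29.4 CPM in the ninth and 51.7 CPM in the members. TBX3 ran in the opposite direction, with 287 CPM in the lowest bin, 99.1 CPM in the ninth and 62.0 CPM in the members. NKX2-5 had no such slope. It lay between 19.2 and 37.7 CPM in the lowest 9 bins and at 4.40 CPM in the members.

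**Figure D1:**
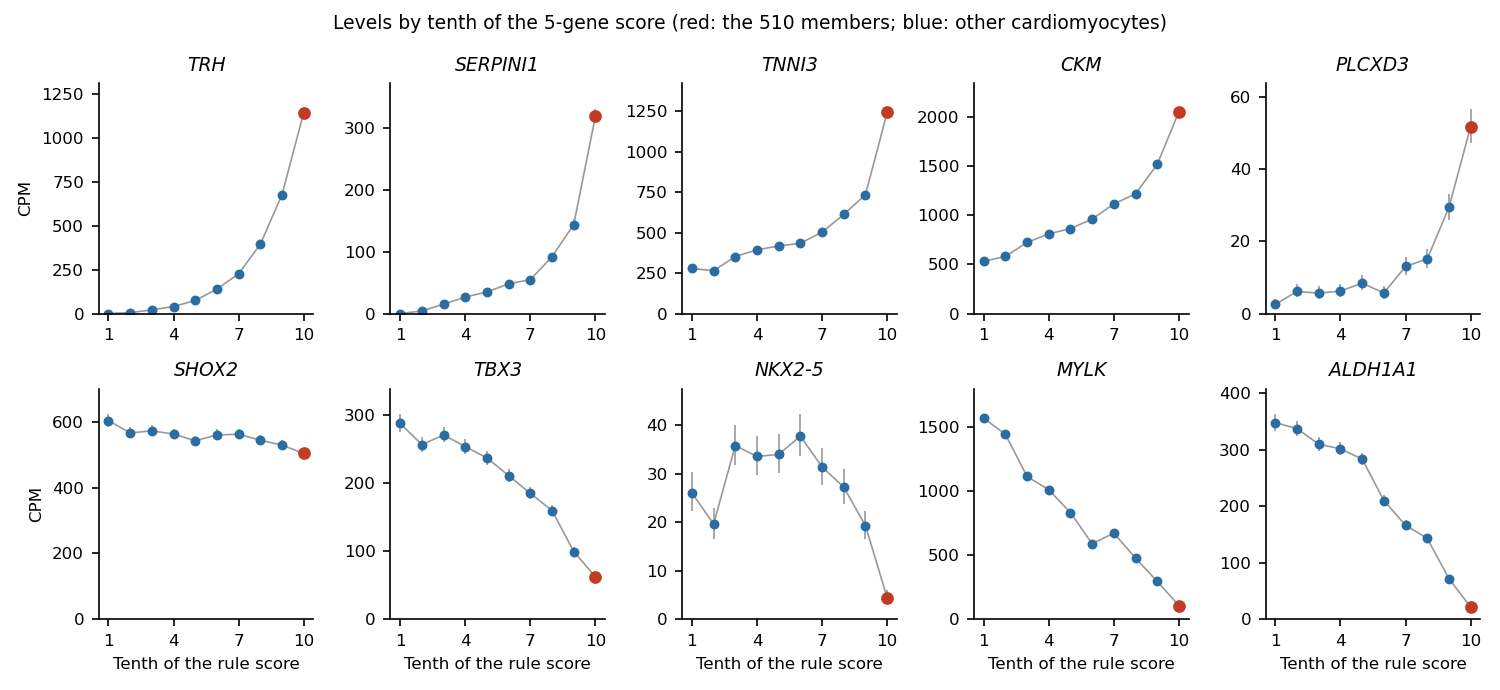
Levels (CPM, vertical axis) of 10 genes in 10 equal bins of cardiomyocytes ordered by the 5-gene score (horizontal axis), with the 510 members in red and the other cardiomyocytes in blue. Vertical lines are exact 95% counting intervals. TNNI3 and CKM climb towards 1242 and 2058 CPM in the members, TBX3, MYLK and ALDH1A1 decline to 62.0, 106 and 21.1 CPM, and SHOX2 stays between 504 and 604 CPM in every bin.

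Within the members the same gradation went on for some genes. The 255 members with the higher scores had 1342 CPM of TRH and 1369 CPM of TNNI3, against 950 and 1119 CPM in the 255 with the lower scores. CKM stood at 2231 CPM in the higher-scoring members and 1892 CPM in the lower-scoring ones. MYLK stood at 63.2 CPM in the higher-scoring members and 147 CPM in the lower-scoring ones.

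Of 6340 genes that reached 20 CPM in either group, 96 (1.51%) were at least 1.5-fold higher in members than in other cardiomyocytes and 383 (6.04%) at least 1.5-fold lower. The same RNA chose the cells, so these shares describe the choice. The median ratio of all measured genes was −0.11 on the log2 scale. The 5 choosing genes, mitochondrial genes and ribosomal protein genes were left out of the ranking that follows.

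TNNI3 was the only gene over 100 CPM in members among the 12 highest ratios. It stood at 1242 CPM in members, 451 CPM in other cardiomyocytes and 30.4 CPM below the TNNT2 limit, a ratio of members to other cardiomyocytes of 2.75 (2.69 to 2.81). A member held a median of 18 TNNI3 UMIs (quartiles 9 and 30.75), and another cardiomyocyte a median of 3 (quartiles 0 and 10). The highest cell held 106 in both groups, so the groups overlapped over their whole range. At equal depth, 91.9% of members, 59.5% of other cardiomyocytes and 10.2% of cells below the limit held a TNNI3 UMI. When cells were chosen on one portion of the UMIs and TNNI3 measured in the other, it stood at 1185 CPM in the chosen cells and 456 CPM in the others, a ratio of 2.60.

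The other 11 of the 12 highest ratios belonged to genes of 24.4 to 51.7 CPM in members, each resting on 216 to 458 transcripts in the members. PLCXD3, a phospholipase C-like protein, stood at 51.7 CPM in members and 10.6 CPM in other cardiomyocytes (ratio 4.87, 4.33 to 5.47). At least 1 PLCXD3 UMI was found in 48.0% of members and 11.2% of other cardiomyocytes. SMOC1, a secreted calcium-binding matrix protein, stood at 36.8 CPM in members and 8.69 CPM in other cardiomyocytes (ratio 4.24, 3.69 to 4.85). The 10 members richest in SMOC1 held 21.8% of the members' SMOC1 UMIs, so its level was carried unevenly.

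GFRA1, the co-receptor for glial cell line-derived neurotrophic factor, stood at 43.1 CPM in members and 13.2 CPM in other cardiomyocytes (ratio 3.28). The scaffold GAB3 (ratio 3.21) stood at 33.3 CPM in members and 10.4 CPM in other cardiomyocytes, and CACHD1, a regulator of voltage-gated calcium channels (2.89), at 40.8 CPM in members and 14.1 CPM in other cardiomyocytes. PTGER3, a receptor for prostaglandin E2 (2.89), stood at 38.1 CPM in members and 13.2 CPM in other cardiomyocytes. GDF2, which encodes BMP9 (2.85), VWC2, a secreted BMP antagonist (2.73), and CASQ1, the skeletal type of the calcium store protein calsequestrin (2.68), lay between 24.4 and 30.0 CPM in members. The noncoding RNAs UNC5B-AS1 (2.76) and LINC01880 (2.49) complete the 12.

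**Figure D2:**
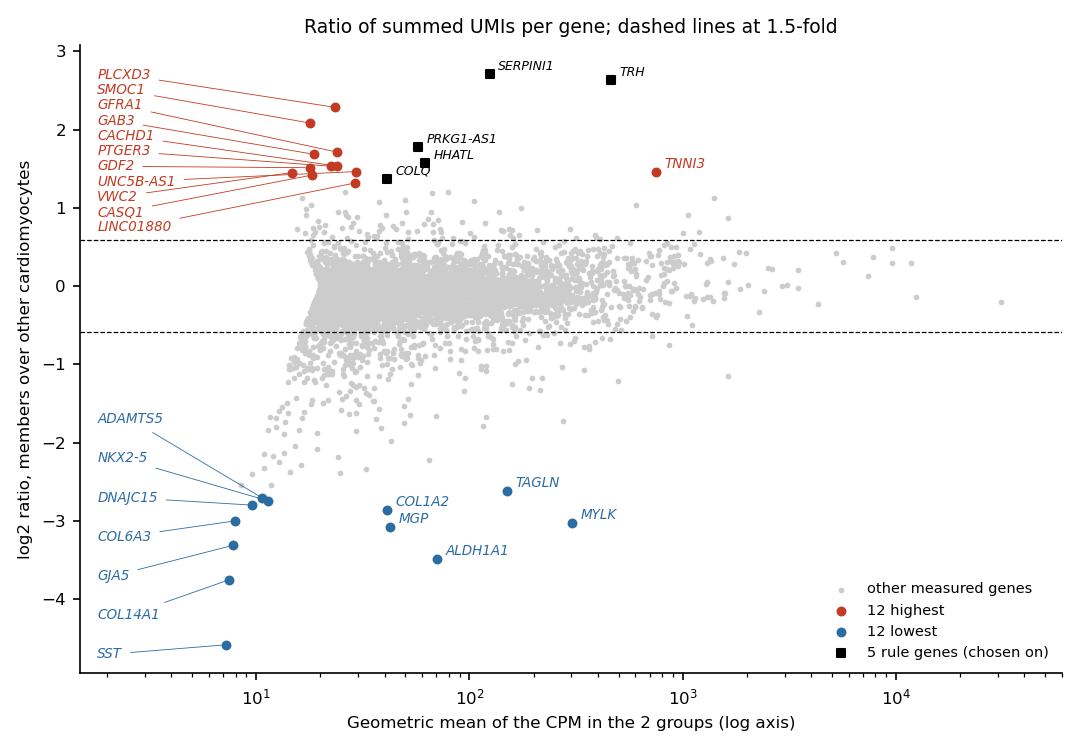
Each point is 1 of the measured genes, with its mean level in both groups (CPM, log axis) on the horizontal axis and the log2 ratio of members to other cardiomyocytes on the vertical axis, and dashed lines at 1.5-fold. The 12 highest (red) and 12 lowest (blue) ratios and the 5 choosing genes (black squares) are named. TNNI3 stands apart from the other red points in level, at 1242 CPM in members and 451 CPM in other cardiomyocytes.

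Of the contractile genes, TNNI3 alone passed 1.5-fold in the lists of troponins and sarcomere genes. TNNI1, the form it replaces in development, stood at 1511 CPM in members and 1599 CPM in other cardiomyocytes (ratio 0.945). TNNT2, which gated both groups (1.30), and TNNC1 (1.34), troponins T and C, lay within 1.5-fold. None of the 20 measured sarcomere genes passed 1.5-fold in either direction, with a median log2 ratio of 0.29. Of all measured genes, 1.51% were at least 1.5-fold higher and 6.04% lower. The giant spring protein titin, TTN, stood at 11276 CPM in members and 8073 CPM in other cardiomyocytes (1.40). ACTN2 (1.39), TCAP (1.40) and MYOM2 (1.46), proteins of the Z-disc and M-band, were displaced the same way. CSRP3, a Z-disc stress sensor, was displaced the other way, at 421 CPM in members and 622 CPM in other cardiomyocytes (0.677). The ventricular light chain MYL2 had 0 counts in members, which allows up to 0.339 CPM, and the adult ventricular heavy chain MYH7 stood at 5.42 CPM in members and 4.13 CPM in other cardiomyocytes.

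Genes of calcium handling and of energy supply were displaced towards the members. Over all measured genes, 1.51% were at least 1.5-fold higher and 6.04% lower. Of 11 measured calcium handling genes, 4 were at least 1.5-fold higher and none lower, with a median log2 ratio of 0.26. Besides CASQ1 these were the calcium release channel RYR2, at 604 CPM in members and 396 CPM in other cardiomyocytes (1.53), and its partner HRC, at 181 and 110 CPM (1.65). The fourth was phospholamban, PLN, which holds back the calcium pump, at 1271 CPM in members and 794 CPM in other cardiomyocytes (1.60). The pump itself, ATP2A2, stood at 2725 CPM in members and 2316 CPM in other cardiomyocytes (1.18).

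Of 15 measured genes of maturation and energy, 6 were at least 1.5-fold higher and 1 lower, with a median log2 ratio of 0.47. The shares over all measured genes were 1.51% higher and 6.04% lower. CKM stood at 2058 CPM in members and 944 CPM in other cardiomyocytes (2.18, 2.15 to 2.22), with a median of 34 UMIs per member and 9 per other cardiomyocyte. Its mitochondrial relative CKMT2 stood at 191 CPM in members and 99.1 CPM in other cardiomyocytes (1.93). COX6A2, the muscle form of a cytochrome oxidase subunit (1.69), PPARA, a nuclear receptor that drives fatty acid use (1.56), ESRRG, an orphan receptor of oxidative metabolism (1.53), and HADHB, an enzyme of fatty acid oxidation (1.53), make up the 6. LDHA, which turns pyruvate to lactate, was the lower one, at 155 CPM in members and 235 CPM in other cardiomyocytes (0.658).

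In glycolysis, 1 of 14 measured genes was higher and 1 lower (LDHA), with a median of 0.19. Of all measured genes, 1.51% were higher and 6.04% lower. The higher one was PFKM, the muscle phosphofructokinase, at 204 CPM in members and 124 CPM in other cardiomyocytes (1.64). Mitochondrial transcripts moved with these groups. They made up a median of 15.1% of a member's UMIs (quartiles 12.2 and 17.6), 11.8% of another cardiomyocyte's (9.47 and 14.5) and 5.78% below the TNNT2 limit. The 13 mitochondrial protein genes had ratios of 1.01 (MT-ND6) to 1.29 (MT-CO2). The part of the mitochondrial share in the lists above was not tested, and the ratios were also taken within 3 equal bins of that share. TNNI3 had ratios of 3.18, 2.56 and 2.14 from the lowest bin to the highest, which held 61, 138 and 311 members, and CKM had ratios of 2.94, 1.95 and 1.73. Both were thus higher in members within every bin, and less so where the mitochondrial share was high. Within 3 bins of total depth TNNI3 had ratios of 2.97, 2.72 and 2.73.

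The pacemaker regulators did not move together. TBX3, the T-box repressor of the working programme, stood at 62.0 CPM in members, 214 CPM in other cardiomyocytes and 77.9 CPM below the TNNT2 limit (ratio of members to other cardiomyocytes 0.289, 0.265 to 0.315). At equal depth 26.4% of members, 47.4% of other cardiomyocytes and 29.7% of cells below the limit held a TBX3 UMI. In TBX3 the members were close to the cells that are not cardiomyocytes. SHOX2, the homeobox factor at the head of the programme, stood at 504 CPM in members and 559 CPM in other cardiomyocytes (0.902), and 88.8% and 88.9% of them held a UMI at equal depth. The pacemaker channel HCN4 stood at 107 CPM in members and 102 CPM in other cardiomyocytes (1.05), and 38.6% of each held a UMI at equal depth. ISL1 lay the other way from TBX3, at 99.7 CPM in members and 68.5 CPM in other cardiomyocytes (1.46), within 1.5-fold, as did TBX18 at 97.2 and 90.3 CPM (1.08).

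Of 12 measured pacemaker genes, then, none was at least 1.5-fold higher and 2 were lower, TBX3 and BMP4. Over all measured genes 1.51% were higher and 6.04% lower. BMP4, a secreted growth factor of the BMP family, stood at 102 CPM in members and 243 CPM in other cardiomyocytes (0.421). The list's median log2 ratio was −0.01, against −0.11 over all measured genes, and its sign turned under 4 alternatives given in the closing section.

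Part of the list of working and atrial muscle genes, some of which TBX3 represses in mice, was lower in members as well. NKX2-5 stood at 4.40 CPM in members, 29.5 CPM in other cardiomyocytes and 1.09 CPM below the TNNT2 limit (ratio 0.149, 0.106 to 0.205), and a UMI of it was found in 28 members (5.49%) and 682 other cardiomyocytes (14.9%). GJA5, connexin 40 of fast-conducting atrial muscle, stood at 2.48 CPM in members and 24.6 CPM in other cardiomyocytes (0.101). The atrial peptide gene NPPA stood at 237 CPM in members and 499 CPM in other cardiomyocytes (0.475). PAM (0.584) and TBX5 (0.624) were also among the lower genes. Of 11 measured working and atrial genes 6 were lower and none higher, with a median log2 ratio of −0.68. The other 5 lay within 1.5-fold. Of these, the atrial light chain MYL4 stood at 6283 CPM in members and 5090 CPM in other cardiomyocytes (1.23). ADM (1.19) lay the same way, and MYL7 (0.911), NR2F2 (0.934) and NR2F1 (0.681) the other way. The shares over all measured genes were 6.04% lower and 1.51% higher. In cells without a TBX3 or NKX2-5 UMI (230 members and 1270 others), NPPA and PAM were near even, with log2 ratios of 0.03 and 0.06. Of 3 measured ventricular genes CKM alone was higher, and MYL3, the ventricular and slow-muscle light chain, stood at 503 CPM in members and 441 CPM in other cardiomyocytes (1.14).

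Of 17 measured cardiac transcription factors, none was higher and 5 were lower, with a median of −0.15, where 1.51% of all measured genes were higher and 6.04% lower. NKX2-5, TBX3, TBX5 and TBX2 (0.499) were among the lower ones. GATA6 (0.949), HAND2 (1.03), MEF2C (0.882) and MYOCD (1.10) lay within 1.2-fold. Among 13 measured ion channel genes none was higher and 4 were lower, with a median of −0.09 whose sign turned at a floor of 50 CPM. Among these were KCNJ5 (0.488) and KCNJ3 (0.603), the subunits of the acetylcholine-gated potassium channel, and the background potassium channel KCNK3 (0.608).

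**Figure D3:**
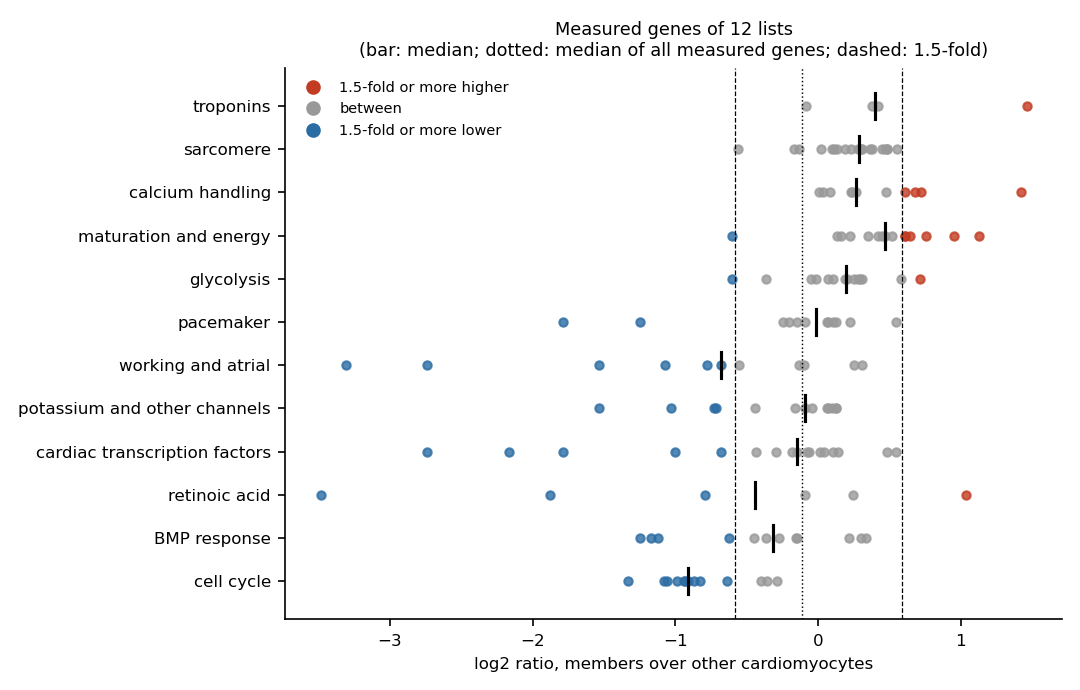
Each point is a measured gene of the named list, placed by its log2 ratio of members to other cardiomyocytes (horizontal axis), with 1.5-fold higher genes in red, 1.5-fold lower genes in blue and the rest in grey. Black bars are list medians, the dotted line is the median of all measured genes (−0.11), and dashed lines mark 1.5-fold. The 20 sarcomere genes all lie between the dashed lines, while 10 of 13 cell cycle genes and 6 of 11 working and atrial genes lie below them.

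NKX2-5 and GJA5, given above, were among the 12 lowest ratios, and the other 10 follow. ALDH1A1, which makes retinoic acid from retinaldehyde, stood at 21.1 CPM in members and 236 CPM in other cardiomyocytes (ratio 0.0893, 0.0769 to 0.103), and 7.28% of members and 43.5% of other cardiomyocytes held a UMI of it at equal depth. MYLK, the myosin light chain kinase, stood at 106 CPM in members and 862 CPM in other cardiomyocytes (0.123, 0.115 to 0.131). Even so, the highest member held 67 MYLK UMIs, and the 10 members richest in MYLK held 39.8% of the members' UMIs of it. TAGLN, transgelin of smooth muscle, stood at 60.7 CPM in members and 372 CPM in other cardiomyocytes (0.163).

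COL14A1, a collagen, stood at 2.03 CPM in members and 27.4 CPM in other cardiomyocytes (0.0743), MGP, an inhibitor of matrix calcification, at 14.7 and 123 CPM (0.119) and the collagen COL6A3 at 2.82 and 22.6 CPM (0.125). COL1A2 stood at 15.2 CPM in members and 111 CPM in other cardiomyocytes (0.138), and the matrix protease ADAMTS5 at 4.18 and 27.2 CPM (0.153). DNAJC15, a co-chaperone of the mitochondrial inner membrane, stood at 3.61 CPM in members and 25.1 CPM in other cardiomyocytes (0.144). The lowest ratio of all belonged to the hormone gene SST, at 1.47 CPM in members and 35.1 CPM in other cardiomyocytes (0.0418), but it rested on few cells. In other cardiomyocytes 10 cells held 92.8% of the SST UMIs and 1 cell held 724 of 2563, and the share of cells with an SST UMI was 2.55% in members and 2.97% in other cardiomyocytes.

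Genes of other cell types were also counted in the members, since RNA or cells of another kind could enter them. Fibroblast markers summed to 242 CPM in members, 784 CPM in other cardiomyocytes and 7920 CPM below the TNNT2 limit, with 7 of 8 measured markers lower in members. Smooth muscle markers summed to 1778 CPM in members, 4718 CPM in other cardiomyocytes and 1207 CPM below the limit, with all 5 measured markers lower. Over all measured genes 6.04% were lower. The part of fibroblast RNA in the low matrix genes was not tested. Epithelial markers summed to 117 CPM in members, 174 CPM in other cardiomyocytes and 3639 CPM below the limit, and 4 of these 10 markers are the genes whose UMIs were limited in choosing cardiomyocytes. Neuronal markers, counted because TRH and SERPINI1 are best known from neurons, summed to 15.5 CPM in members, 32.1 CPM in other cardiomyocytes and 41.9 CPM below the limit, with ELAVL4 at 0 in members. Skeletal muscle markers summed to 3.61 CPM in members and 4.50 CPM in other cardiomyocytes, with MYF5, MYF6, PAX7, PAX3 and CHRNA1 at 0. Epicardial markers summed to 17.6 CPM in members, 24.3 CPM in other cardiomyocytes and 134 CPM below the limit, with WT1 and MSLN at 0 in members. Endothelial, blood, and neural crest markers each summed to under 3 CPM in members. Cardiomyocyte markers summed to 60144 CPM in members, 51634 CPM in other cardiomyocytes and 2240 CPM below the limit. That list includes TNNT2, which defined all 3 groups, at 8868 CPM in members, 6840 CPM in other cardiomyocytes and 390 CPM below the limit.

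Other genes of the pathways of the choosing genes were counted from lists, of which few members were measured. A hormone precursor such as TRH is cut by prohormone convertases, trimmed by carboxypeptidase E and amidated by PAM. PCSK1 and PCSK2, the convertases of endocrine cells, had 0 counts in members, as did the secretory granule genes CHGA, SCG2 and VGF. Other cardiomyocytes held 3 counts of PCSK1, 5 of PCSK2, 11 of CHGA, 57 of SCG2 and 19 of VGF. Of these only SCG2, at 0.781 CPM in other cardiomyocytes, was above the 0.339 CPM that 0 counts in members allow. Of 3 measured genes in the list of TRH processing and reception, CPE was higher, at 490 CPM in members and 317 CPM in other cardiomyocytes (1.55), and PAM lower, at 262 and 449 CPM (0.584). The ubiquitous convertase FURIN lay between, at 23.1 CPM in members and 24.7 CPM in other cardiomyocytes (0.936). Of all measured genes, 1.51% were higher and 6.04% lower. The receptor gene TRHR had 2 counts in all members together and 6 in other cardiomyocytes.

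The target of neuroserpin, tissue plasminogen activator PLAT, had 3 counts in the members (0.339 CPM, against 1.96 CPM in other cardiomyocytes). None of 5 other measured genes of serpins and the plasminogen system passed 1.5-fold, and SERPINB6 stood at 151 CPM in members and 135 CPM in other cardiomyocytes (1.12). For COLQ, its enzyme ACHE stood at 2.03 CPM in members and 3.10 CPM in other cardiomyocytes, and the muscarinic receptor CHRM2 at 109 and 111 CPM (0.981). Of 6 measured acetylcholine genes 2 were lower, KCNJ3 and KCNJ5, and none higher, where 6.04% of all measured genes were lower. For HHATL, the single measured hedgehog gene was the receptor component SMO, at 19.8 CPM in members and 21.7 CPM in other cardiomyocytes (0.909). For PRKG1-AS1, the sense gene PRKG1 was lower, at 46.5 CPM in members and 77.9 CPM in other cardiomyocytes (0.597, 0.539 to 0.660), where PRKG1-AS1 was higher. PDE3A, which breaks down cyclic nucleotides, was lower too (0.606), out of 3 measured cyclic GMP genes.

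Signalling lists divided further. In the thyroid hormone list 1 of 3 measured genes was lower, the transporter SLC16A10 (0.473), and the receptor THRA stood at 111 CPM in members and 91.2 CPM in other cardiomyocytes (1.21). In the retinoic acid list 1 of 6 was higher and 3 were lower, ALDH1A1, the binding protein CRABP2 (0.273) and the receptor RARA (0.577). Genes of BMP signalling had 4 of 12 lower and none higher, with a median of −0.32. Over all measured genes 6.04% were lower and 1.51% higher. ID1, a direct target of the pathway, stood at 145 CPM in members and 328 CPM in other cardiomyocytes (0.443). The ligands BMP2 (0.460), BMP4 (0.421) and BMP5 (0.647) were the other lower genes. The related targets ID2 (0.899) and ID3 (0.829) lay within 1.5-fold. So did the ligand BMP7 (1.16), SMAD6 (1.23) and MSX2 (1.26) of the same list, which lay towards the members.

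Proliferation was lower in members. Of 13 measured cell cycle genes 10 were lower and none higher, with a median of −0.91, where 6.04% of all measured genes were lower. MKI67, a marker of dividing cells, stood at 59.4 CPM in members and 150 CPM in other cardiomyocytes (0.396). A cell was counted as cycling at 10 or more UMIs of MKI67, TOP2A, CENPF, UBE2C, CDK1, TPX2, BIRC5 and CCNB1 together. The replication genes of the list, such as PCNA and TYMS, were not in that count. Cycling cells were 6.86% of members (4.83 to 9.42), 15.7% of other cardiomyocytes (14.6 to 16.7) and 24.0% of cells below the TNNT2 limit. With these cycling cells left out, TNNI3 kept a log2 ratio of 1.41. Immediate early genes had 1 of 8 lower, ATF3 (0.546), and none higher, the integrated stress response 1 of 4 lower, PHGDH (0.419), and the 4 measured metallothioneins none in either direction.

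CD34 protein, read by the antibody tag, was the readout that had no part in choosing the cells. The tag had a median of 57 UMIs per member (quartiles 37 and 89.75), 90 per other cardiomyocyte (45 and 308) and 41 per cell below the TNNT2 limit (29 and 58). The medians' 95% intervals were 53 to 61 in members and 86 to 95 in other cardiomyocytes. A tag count above the 99th percentile of cells below the limit (342.3 UMIs) was reached by 25 of 510 members (4.90%, 3.20 to 7.15) and 1072 of 4585 other cardiomyocytes (23.4%, 22.2 to 24.6). Most cells of both groups thus lay below that limit, and a smaller share of members passed it. At the score limit the medians did not follow this order. The tag had a median of 70.5 UMIs in the 50 members just inside and 54.5 in the 50 cells just outside. The CD34 transcript was rarer in members than in other cardiomyocytes. At equal depth a CD34 UMI was found in 0.197% of members (1 of 508), 4.04% of other cardiomyocytes and 0.131% of cells below the limit.

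The tag was also read apart in cells with and without a TBX3 UMI. Among cells with a TBX3 UMI the median tag was 60.5 in 262 members and 158 in 3003 other cardiomyocytes, and 6.87% and 32.6% of them passed the percentile limit. Among cells without a TBX3 UMI the median was 56 in 248 members (53 to 61) and 53 in 1582 other cardiomyocytes (50 to 54), and 2.82% and 5.82% passed the limit. The members' median tag was low with and without a TBX3 UMI, while that of other cardiomyocytes was high with one. The split was by presence only and did not match TBX3 levels. The 262 members with a TBX3 UMI held 549 TBX3 UMIs, and the 3003 other cardiomyocytes with one held 15642. The tag at matched TBX3 levels was not tested.

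**Figure D4:**
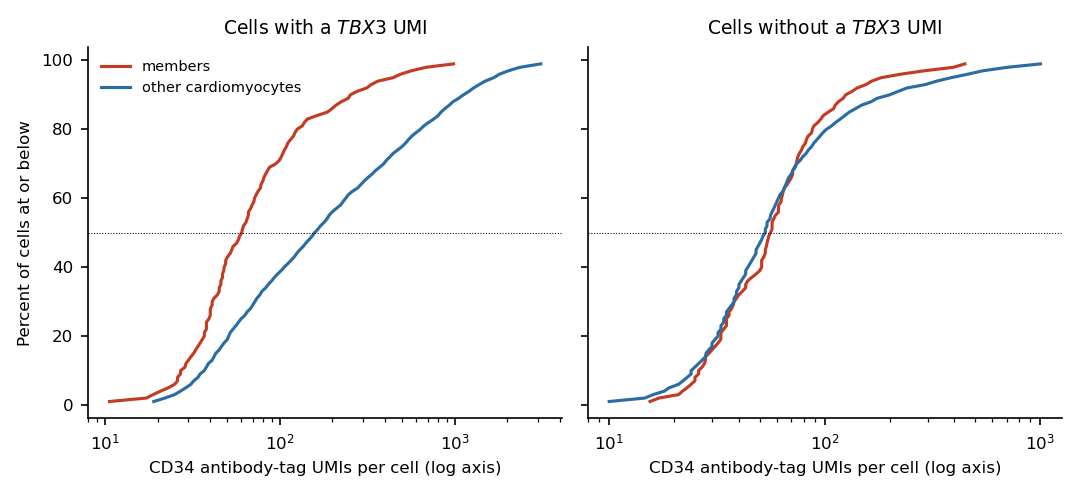
Cumulative share of cells (percent, vertical axis) at or below each CD34 antibody-tag count (UMIs per cell, log axis), for members (red) and other cardiomyocytes (blue), with a dotted line at the median. With a TBX3 UMI (left) the members' curve lies left of the others, at medians of 60.5 and 158, and without a TBX3 UMI (right) the curves lie close together, at medians of 56 and 53.

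The members were also set beside 4 other sets of cardiomyocytes in the culture. Each top 10% set holds 10.0% of all cardiomyocytes, and the NKX2-5 cells hold 13.9%. Of the top 10% by A2M, SERPINF1 and GJA5, also 510 cells, 14 were members (2.75% of either set), and of the top 10% by MYL3, CAPN3 and LRRTM3, 39 were (7.65%, 5.49 to 10.3). Of the top 10% by KCNG1, AARD and MYLK, 2 were (0.392%). Of 710 cells with an NKX2-5 UMI, 28 were members, 5.49% of the members and 3.94% of the NKX2-5 cells. All these sets were themselves picked on RNA.

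Low TBX3 was shared with the A2M set and high CKM with the MYL3 set. TBX3 stood at 62.0 CPM in members, 32.2 CPM in the A2M set, 485 CPM in the MYL3 set, 226 CPM in the KCNG1 set and 140 CPM in NKX2-5 cells. CKM stood at 2058 CPM in members, 392 CPM in the A2M set, 1716 CPM in the MYL3 set, 419 CPM in the KCNG1 set and 926 CPM in NKX2-5 cells. TNNI3 was highest in members, at 1242 CPM, followed by 782 CPM in the A2M set, 705 CPM in NKX2-5 cells, 479 CPM in the MYL3 set and 176 CPM in the KCNG1 set. ISL1 stood at 99.7 CPM in members and 27.0 CPM in the A2M set. MYL3, which defines its own set at 2472 CPM, stood at 503 CPM in members. PLCXD3 stood at 51.7 CPM in members and at or below 9.66 CPM in each of the 4 other sets. The median tag was 57 UMIs in members, 53 in the A2M set, 54 in NKX2-5 cells, 98 in the KCNG1 set and 249 in the MYL3 set.

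**Figure D5:**
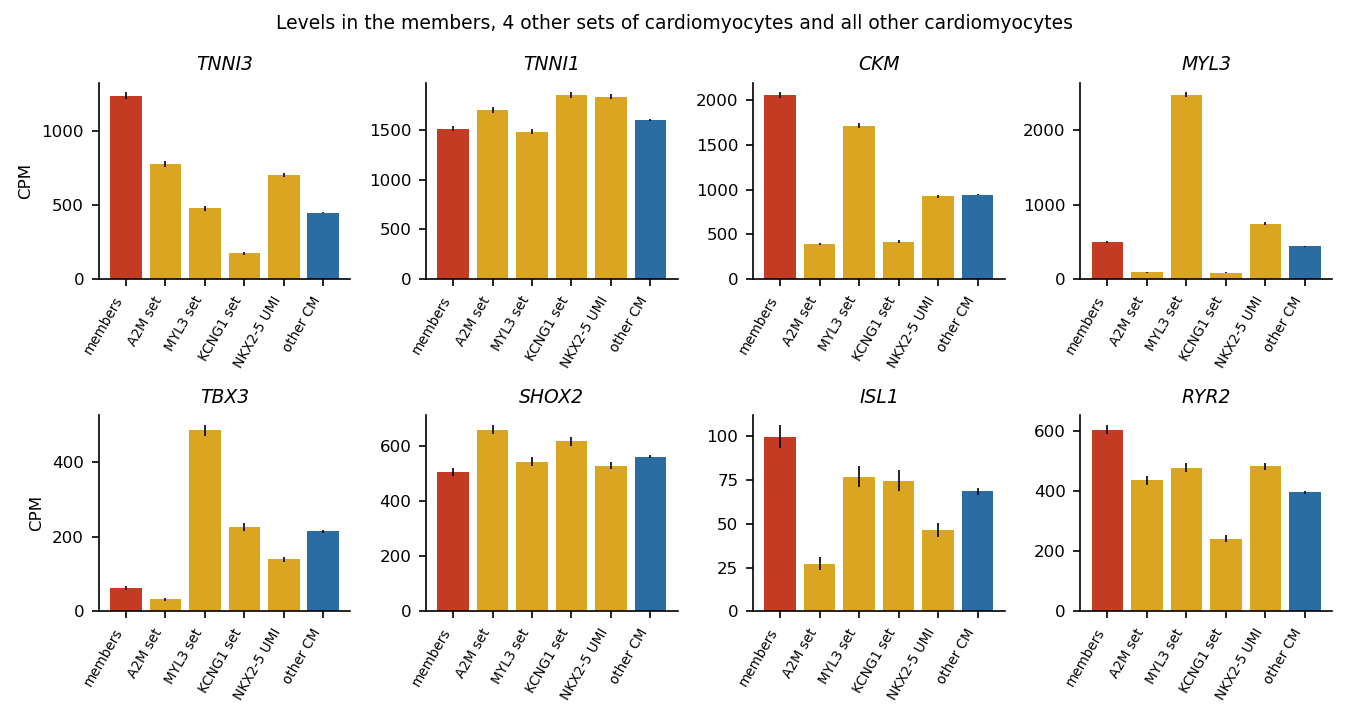
Bars are the level (CPM, vertical axis from 0) of 8 genes in the members (red), 4 other sets of cardiomyocytes (ochre) and all other cardiomyocytes (blue), with exact 95% counting intervals, and MYL3 helped to choose its own set. TNNI3 and CKM are highest in the members, at 1242 and 2058 CPM, while TBX3 is lowest in the A2M set and the members, at 32.2 and 62.0 CPM.

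Doublets, droplets holding more than 1 cell, were called by Scrublet in 5 of 510 members (0.980%, 0.319 to 2.27) and 162 of 4585 other cardiomyocytes (3.53%, 3.02 to 4.11), and called cells were kept. Another 421 cells passed the TNNT2 limit but held over 4 UMIs of the epithelial genes, and they entered neither group.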

How the data were processed

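Counts of RNA and antibody-tag UMIs per cell were deposited by the authors as 1 matrix of 14829 barcodes, holding 239181462 RNA and 2773855 tag UMIs. Per the submitters' processing notes they were made with Cell Ranger 6.1.2 on GRCh38, and per the labels' protocols the libraries were 3′ version 3 droplet libraries, so counts carry no isoform. No cell annotation was used. Of the barcodes, 12119 passed the limits on genes and mitochondrial share, and 11211 of these had at most 35000 UMIs.

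From the counts, UMIs were summed over members and over other cardiomyocytes and scaled to CPM by all RNA UMIs (8856178 and 72947726). Ratios have exact conditional binomial 95% intervals, and shares exact Clopper-Pearson ones. They take transcripts as independent and cover counting error only. A gene was measured at 20 CPM in either group and called at 1.5-fold. List medians are given for lists with at least 5 measured genes. The procedure was tested on simulated counts. Doublets were called with Scrublet in scanpy 1.11.5 in 1401 of 12119 barcodes (11.6%) and kept, with their removal as an alternative. The text names the 5 choosing genes, the 12 highest and 12 lowest ratios, and genes of lists. Members, lists and comparisons were chosen with earlier results of these data known. Of 12 genes looked up for promoters, 10 matched RefSeq (GRCh38.p14). Chromosome positions are RefSeq's. Some genes of the lists enter the counts and medians but are not reported here by name.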

Additional observations from a re-analysis of the deposited data

How the results depend on the processing

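No paired analysis was possible because the culture was 1 sample with no replicate. Of 898 gene ratios under alternative settings, 583 stayed within their counting interval, 313 moved further and 2 were counted as changing direction. A change of direction was counted only for genes at least 1.5-fold apart in the main setting. Genes near even could change sign uncounted, as HCN4 did, with log2 ratios from −0.048 to 0.270. Of the list medians 248 stayed, 40 moved and 6 changed sign. TNNI3 kept a ratio of 2.33 to 2.90, CKM of 1.92 to 2.94 and TBX3 of 0.248 to 0.371 across the alternatives. The lowest ratios kept their direction but were less stable in size. COL6A3 ran from 0.024 to 0.397, COL14A1 from 0.017 to 0.209, MGP from 0.047 to 0.294 and COL1A2 from 0.069 to 0.361. NKX2-5 ran from 0.115 to 0.418, ALDH1A1 from 0.054 to 0.196 and TAGLN from 0.124 to 0.296. Their counting intervals do not cover this movement. Against 96 higher and 383 lower genes, a floor of 50 CPM gave 53 and 159, a fold of 2 gave 22 and 146, and a floor of 10 CPM gave 731 lower. The top 20% by score gave 227 lower and choice within bins of the mitochondrial share, added after the data were seen, 237. Measured in UMIs that had not chosen the cells, TRH stood at 1072, SERPINI1 at 283, PRKG1-AS1 at 87.0, HHATL at 91.0 and COLQ at 58.0 CPM. The median CD34 tag of members over other cardiomyocytes had a ratio of 0.633, and 0.540 with TNNT2 of at least 4000 CPM. In cells without a TBX3 or NKX2-5 UMI, also added after the data were seen, that ratio was 1.06 (56 against 53 UMIs), and NPPA (0.031), PAM (0.064) and the working and atrial list (0.010) had positive log2 values. The pacemaker list had a median log2 of 0.014 with the score taken without PRKG1-AS1, 0.00039 without HHATL, 0.064 under median-ratio scaling and 0.038 when scaled by non-mitochondrial UMIs (added after the data were seen), and the channel list of 0.067 at a floor of 50 CPM. The cause of these changes was not tested. With 1 culture, nothing here tells how the members would vary between cultures.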

Other observations

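Further genes at least 1.5-fold higher in members, chosen after their values were seen, included the stress chaperone CRYAB, at 2199 CPM in members and 1201 CPM in other cardiomyocytes (ratio 1.83). The beta-1 adrenergic receptor ADRB1 stood at 91.8 CPM in members and 47.7 CPM in other cardiomyocytes (1.93), and ABCC9, a subunit of the ATP-sensitive potassium channel, at 54.4 CPM in members and 25.9 CPM in other cardiomyocytes (2.11). COQ8A (2.14) and COQ10A (1.88), which serve coenzyme Q, and SLC25A20 (1.92), which carries acylcarnitines into mitochondria, were higher as well. Among the lower genes, BVES (0.31) and POPDC3 (0.34) encode 2 members of the Popeye family of cyclic AMP-binding proteins, and TMSB4X (0.30) binds actin monomers.

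With 4 of the 5 choosing genes on chromosome 3, the share of UMIs from that chromosome was compared after leaving those genes out. The total was the UMIs of genes placed on the autosomes and X, without mitochondrial UMIs. Chromosome 3 made up 5.33% of that total in members and 5.30% in other cardiomyocytes. Of 368 measured genes on chromosome 3, 5 were at least 1.5-fold higher and 22 lower, where 1.51% of all measured genes were higher and 6.04% lower.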
